A study of Mus musculus with 8 samples.

Results

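The 9 genes described are genes of the Sertoli cell: Clu, Trf and Shbg, which encode proteins that the cell secretes to carry other molecules, and Sox9, Wt1, Gata4, Gata1, Aard and Mro, which encode factors and markers of its identity. The rule that picks their probes goes by gene name and uses no measured value, but the genes were chosen with earlier results of these data known. All 9 genes of 27962 gene names on the array were found, on 13 of 41174 probes and 49 of 43379 spots. Of these 13 probes, 10 for 8 genes were bright enough to be tested, among 22975 probes tested in all.

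The animals were male C57BL/6J mice, 18 weeks old at the start and 21 weeks old at the end. One group of 4 mice received di-(2-ethylhexyl) phthalate (DEHP), a plasticiser, at 200 mg/kg/day in corn oil by gavage for 21 days, and 4 control mice received corn oil alone, called vehicle below. RNA came from laser-captured Sertoli-cell-rich areas of the right testis, taken from the intermediate layer of the tubule epithelium, with 1 cap per mouse and 2 rounds of amplification. Each of 8 Agilent arrays with 2 colours carried a DEHP mouse against a vehicle mouse, and each of 4 pairs of mice was run with both dye orientations.

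The pairs carry the number of their DEHP mouse, and the vehicle mice of pairs 1, 2, 3 and 4 were numbers 2, 3, 4 and 1. All ratios below are log2 ratios of DEHP over vehicle, averaged over the pair's 2 arrays, so that n = 4 pairs. Arrays on which the DEHP mouse carried Cy5 are called Cy5 arrays and the others Cy3 arrays. The 4 Cy5 arrays made up slide 1 and the 4 Cy3 arrays slide 2, and the effects of slide and dye orientation cannot be told apart. Between 49.8% and 59.5% of the spots of a channel were well above background. The number of mice, in 4 pairs, limits the precision.

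Sertoli cells line the seminiferous tubule, hold the germ cells through their development and seal the tubule behind the blood-testis barrier. Because germ cells inside the barrier have no direct access to plasma, the Sertoli cell passes iron, lipids and steroids to them with its own secreted carriers: transferrin for iron, clusterin as a lipid-binding chaperone, and the androgen-binding protein. SOX9 and WT1 set and keep the Sertoli fate, and GATA factors activate many Sertoli genes.

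RNA of the labelled cell type and of others was detected in the captured areas. Of 14 Sertoli cell markers, 13 were tested, among them Rhox5, Cldn11, Inha, Cst12 and Defb19. The labels' tissue field names Sertoli-rich areas while their capture protocol names Leydig cells. Of 8 Leydig markers 4 were tested (Insl3, Star, Cyp17a1 and Hsd3b1), whereas Cyp11a1, Hsd3b6, Hsd17b3 and Lhcgr were too dim. Markers of round and elongating spermatids were tested in 8 of 8 cases each. Of the other lists, spermatocytes had 7 of 8 markers tested, spermatogonia 5 of 8, and peritubular myoid cells 7 of 8. Macrophages had 6 of 7, and endothelium and blood 6 of 8. Over the whole array, 22975 of 41174 probes were tested. In bulk RNA of this kind, fewer cells of a type and less RNA per cell cannot be told apart.

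None of the 8 genes that could be tested passed the test between DEHP and vehicle mice. In limma, 0 of the 10 tested member probes had an adjusted p under 0.05, against 0% of all 22975 probes (0 called, smallest adjusted p 0.922). At an unadjusted p under 0.05, 0 of 10 member probes passed, against 1192 or 5.19% of all probes. No member probe had the same sign in all 4 pairs (0 of 10, against 13.3% of all probes). The levels of the 4 DEHP mice overlapped those of the 4 vehicle mice for every tested member probe (0 of 10 without overlap, against 2.02% of all probes).

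The median of the 10 mean ratios was 0.027, beside -0.0027 over all probes tested, and 8 of 10 lay above 0, beside 48.8% of all probes. The median SD over pairs was 0.21 for the members and 0.17 for all probes. By pair, the median of the member probes was 0.048, 0.084, -0.063 and 0.038, beside -0.00014, -0.00083, -0.0071 and 0.0017 over all probes.

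**Figure D1:**
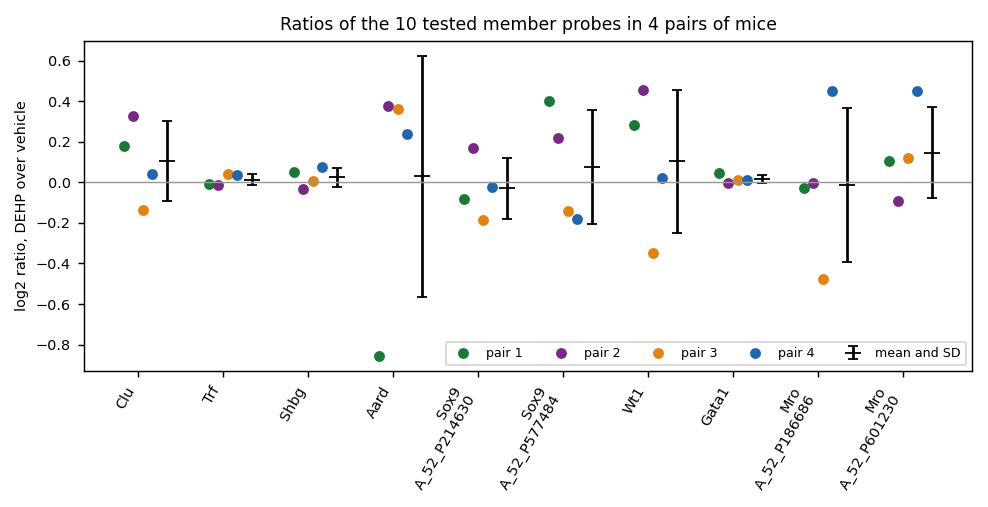
Log2 ratio of DEHP over vehicle (vertical axis) of each of the 10 tested member probes, with 1 coloured point per pair of mice and the mean with its SD (n = 4 pairs) in black. The pairs lie on both sides of 0 for every probe, Aard has 1 pair at -0.86 apart from 3 at 0.24 to 0.38, and Trf and Gata1 stay close to 0.

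Among the carriers, Clu encodes clusterin, an extracellular chaperone that is among the main proteins secreted by Sertoli cells. Its probe A_51_P367720 lies on chromosome 14, from 60841778 to 60841837 on the plus strand in mm7. The log2 level was 12.25, 12.61, 12.57 and 12.29 in DEHP mice 1 to 4, and 12.25, 12.07, 12.29 and 12.70 in vehicle mice 1 to 4. The highest and the lowest of the 8 mice were both vehicle mice, numbers 4 and 2, and the groups overlapped. The ratios were 0.18, 0.33, -0.13 and 0.042 in pairs 1 to 4, and both arrays of a pair gave the same sign in all 4 pairs. The mean was 0.10 ± 0.20 (SD, n = 4; limma adjusted p = 0.942), which is 1.07-fold with a 95% interval from 0.92 to 1.26.

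Clu also differed by dye orientation, which cannot be told apart from slide. The mean was 0.21 on the Cy5 arrays and -0.00017 on the Cy3 arrays, and the dye term of a fit with the pair as a block was 0.10 (limma adjusted p = 0.00549). Averaging the 2 orientations cancels a dye effect that is equal on both slides, but not one that differs between them. Dye terms were common on these arrays, with 9627 of 22975 probes called in that fit.

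Trf encodes transferrin, which loads iron for germ cells. Its probe A_51_P362638 spans 616 bases of chromosome 9 in mm7, from 102929342 to 102929957 on the minus strand, so the 60 bases of this probe are not contiguous in the genome. The log2 level was 6.56, 6.53, 6.50 and 6.49 in DEHP mice 1 to 4, and 6.46, 6.57, 6.54 and 6.46 in vehicle mice 1 to 4. All 8 mice lay within 0.12 of each other, with both extremes among the vehicle mice. The ratios were -0.010, -0.013, 0.041 and 0.034, and the mean was 0.013 ± 0.028 (SD, n = 4; limma adjusted p = 0.992), or 1.01-fold with a 95% interval from 0.93 to 1.1.

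The narrow range of Trf needs its signal beside it. The spot was well above background in all 16 channels, but its brightness over the local background was only 24.7 to 53.9 intensity units, less than or near the offset of 50 that the background correction adds. Ratios of such dim probes are pulled towards 0 by the offset. The interval therefore describes the corrected values and not the range that Trf transcripts could have had.

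Shbg encodes the androgen-binding protein, which binds testosterone and dihydrotestosterone. Its probe A_51_P423549 lies on chromosome 11, from 69696607 to 69696666 on the minus strand in mm7. The log2 level was 6.58, 6.58, 6.70 and 6.48 in DEHP mice 1 to 4, and 6.41, 6.53, 6.61 and 6.69 in vehicle mice 1 to 4. DEHP mouse 3 and vehicle mouse 4, which shared their arrays in pair 3, were the 2 highest. The ratios were 0.052, -0.035, 0.0081 and 0.074, with a mean of 0.025 ± 0.048 (SD, n = 4; limma adjusted p = 0.976). This probe was dim too, at 27.9 to 65.1 intensity units over background. The authors' deposited table gave wider ratios for it, at 0.14, -0.18, -0.015 and 0.11.

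Among the identity factors, Sox9 encodes the transcription factor that turns the bipotential gonad towards testis and stays on in adult Sertoli cells. It has 3 probes on the plus strand of chromosome 11. Of these, 1 was too dim to test, and the means of the others had opposite signs, with neither called. The first 30 of the 60 bases of each are shown (lower case, 5′ to 3′, as in the deposited array files), from the lowest coordinate to the highest.
Sox9 A_51_P451606: actctgggcaagctctggaggctgctgaac
Sox9 A_52_P577484: ttccaggagagagactttaagactttgtct
Sox9 A_52_P214630: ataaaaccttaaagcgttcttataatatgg

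The first spans 853 bases, from 112892041 to 112892893 in mm7, so its 60 bases are not contiguous in the genome, while the others lie at 112894739 to 112894798 and at 112896540 to 112896599. The second starts 1846 bases after the end of the first, and the third 1742 bases after the end of the second. The GC content of the whole probes was 60%, 43.3% and 30% in that order, beside a median of 40.0% over all probes.

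The Sox9 probe of lowest coordinate, A_51_P451606, was too dim to test. It was well above background in 1 of 8 DEHP channels and 0 of 8 vehicle channels, at 6.1 to 23.0 intensity units over background. The middle probe, A_52_P577484, and the one of highest coordinate, A_52_P214630, were well above background in all 16 channels. Sox9 RNA was thus detected with 2 of its 3 probes. Brightness over background was 45.7 to 181 intensity units for A_52_P577484 and 30.5 to 128 for A_52_P214630. The dimmest channels of both thus lay under the offset of the background correction, which pulls ratios towards 0.

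For A_52_P577484 the log2 level was 7.27, 7.32, 7.11 and 7.32 in DEHP mice 1 to 4, and 7.50, 6.87, 7.11 and 7.25 in vehicle mice 1 to 4. All 4 DEHP mice lay inside the range of the vehicle mice. The ratios were 0.40, 0.22, -0.14 and -0.18, with a mean of 0.075 ± 0.28 (SD, n = 4; limma adjusted p = 0.967). This probe had the strongest dye term among the members, at -0.17 (limma adjusted p = 0.000245 in the fit with the pair as a block). Its mean was -0.096 on the Cy5 arrays and 0.25 on the Cy3 arrays.

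For A_52_P214630, printed on 10 spots per array, the log2 level was 6.55, 7.23, 6.92 and 6.74 in DEHP mice 1 to 4, and 6.76, 6.63, 7.06 and 7.10 in vehicle mice 1 to 4. Here the lowest and the highest of the 8 mice were both DEHP mice, numbers 1 and 2. The ratios were -0.080, 0.17, -0.19 and -0.022, with a mean of -0.030 ± 0.15 (SD, n = 4; limma adjusted p = 0.984). The 2 tested Sox9 probes had the same sign in pairs 2, 3 and 4 and opposite signs in pair 1, where they gave 0.40 and -0.080. Without pair 1 the mean of A_52_P577484 was -0.034, and without pair 3 that of A_52_P214630 was 0.022.

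Wt1 encodes a zinc finger factor that Sertoli cells need to keep their fate and polarity. Its probe A_52_P673458, on 10 spots per array, lies on chromosome 2, from 105024058 to 105024117 on the plus strand in mm7. The log2 level was 7.31, 7.64, 7.27 and 7.40 in DEHP mice 1 to 4, and 7.38, 7.02, 7.18 and 7.62 in vehicle mice 1 to 4. DEHP mouse 2 and vehicle mouse 4 were the highest and vehicle mouse 2 the lowest. The ratios were 0.28, 0.46, -0.35 and 0.022, with a mean of 0.10 ± 0.35 (SD, n = 4; limma adjusted p = 0.962), or 1.07-fold with a 95% interval from 0.839 to 1.37. Without pair 2 the mean was -0.015, and without pair 3 it was 0.25. The brightness of Wt1 over background was 46.6 to 209 intensity units, so its dimmest channel lay under the offset. Its ratios and interval therefore describe the corrected values, as for Trf.

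The differences of Wt1 between pairs were larger than the spread between its spots. The 2 arrays of a pair gave the same sign in 3 of 4 pairs, and the SD between the 10 spots within an array was 0.043 to 0.080. Within the pair of largest ratio, pair 2, the Cy5 array gave 0.49 and the Cy3 array gave 0.42. Pair 3 gave -0.28 and -0.43, so both orientations put Wt1 lower in its DEHP mouse.

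Clu, Wt1 and the Sox9 probe A_52_P214630 had similar ratios over the arrays. Pearson's r over the 8 arrays was 0.89 for Clu and Wt1, 0.84 for Wt1 and this Sox9 probe, and 0.82 for Clu and this Sox9 probe. The other tested Sox9 probe, A_52_P577484, had r of 0.20 with Clu, 0.52 with Wt1 and 0.15 with A_52_P214630. These 8 points are 4 pairs of mice measured in both orientations and share spots, slides and dyes, so r is given as a description. Clu, Wt1 and A_52_P214630 had their highest ratio in pair 2 and their lowest in pair 3. For Wt1 this order depends on a step of background correction chosen after seeing the data, without which pair 1 (0.21) was above pair 2 (0.11).

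Of the 9 lists of cell type markers, 4 had their highest median in pair 2 and their lowest in pair 3, those of Leydig cells, Sertoli cells, peritubular myoid cells and macrophages. The median ratio of the 4 Leydig markers was -0.27, 1.25, -0.85 and -0.23 in pairs 1 to 4, with Insl3, the relaxin-like hormone of Leydig cells, at -1.04, 2.36, -1.49 and -0.25. The median of the 13 Sertoli markers was 0.075, 0.22, -0.11 and 0.13, and its genes differed in pair 2, from 1.39 for Ptgds, a prostaglandin synthase, to -0.076 for Tsx and -0.15 for Krt18. The medians of peritubular myoid markers were 0.073, 0.11, -0.12 and 0.10, and those of macrophage markers -0.11, 0.045, -0.14 and 0.023. The log2 of the summed level of the Leydig markers ranged from 11.43 to 13.47 over the DEHP mice and from 11.39 to 13.41 over the vehicle mice. That of the Sertoli markers ranged from 15.07 to 15.63 and from 14.90 to 15.50. The part of these marker lists in the ratios of Clu, Wt1 and Sox9 A_52_P214630 was not tested.

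**Figure D2:**
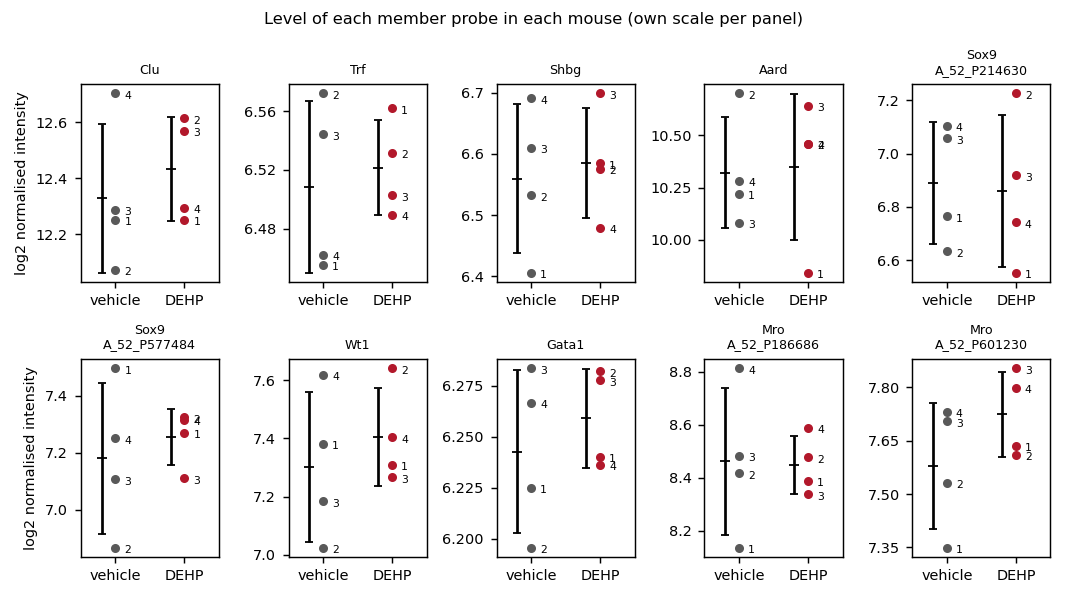
Log2 normalised intensity (vertical axis, own scale per panel) of each tested member probe in each mouse, with vehicle mice in grey, DEHP mice in red, the mouse number beside each point, and the mean with its SD (n = 4 mice) in black. The groups overlap in every panel. Vehicle mouse 2 is the lowest for Clu, Wt1, Gata1 and the Sox9 probe A_52_P577484, and vehicle mouse 1 is the lowest for Shbg, Trf and both Mro probes.

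Gata4 encodes a zinc finger factor of somatic gonad cells that acts on the promoters of Amh, the inhibins and Dhh. It could not be tested, since both of its probes were too dim. Probe A_51_P492355 was well above background in 0 of 8 DEHP channels and 2 of 8 vehicle channels, at 7.82 to 23.7 intensity units over background. Probe A_52_P4201, on 10 spots per array, was so in 0 of 8 and 0 of 8 channels, at 1.89 to 10.5 units. The first 30 bases of the dimmer probe are shown because the hexamer sits in them. Capitals mark the hexamer AATAAA, the usual polyadenylation signal, searched also as TTTATT for the other strand, in a window of the probe's 60 bases.
Gata4 A_52_P4201: ctagaaaatacagactgtttgcaaAATAAA

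AATAAA was found in 1967 of 41174 probes (4.78%) and TTTATT in 1748 (4.25%). Among the 11 member probes searched, AATAAA was found in this one, of 28.3% GC, and TTTATT in that of Aard. A match describes the letters and not a used site. The probe lies on chromosome 14 at 58063189 to 58063248 on the minus strand in mm7. The other probe is placed at 58062775 to 58062796, which covers 22 of its 60 bases, with 392 bases between the intervals.

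Gata1 encodes the erythroid GATA factor, which Sertoli cells also make in a stage-dependent way. Its probe A_52_P670095, on 10 spots per array, lies on chromosome X from 6392873 to 6392932 on the minus strand in mm7. It just entered the test, well above background in 4 of 8 DEHP and 4 of 8 vehicle channels, where 4 were required. The log2 level was 6.24, 6.28, 6.28 and 6.24 in DEHP mice 1 to 4, and 6.22, 6.20, 6.28 and 6.27 in vehicle mice 1 to 4. The ratios were 0.044, -0.0015, 0.011 and 0.011, with a mean of 0.016 ± 0.020 (SD, n = 4; limma adjusted p = 0.987).

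The sign of Gata1 differed between the dye orientations, with a dye term of 0.044 that was not called (limma adjusted p = 0.0668 in the fit with the pair as a block). All 4 Cy5 arrays lay above 0 and all 4 Cy3 arrays below 0, with means of 0.060 and -0.027 respectively. At 14.4 to 38.3 intensity units over background the probe was under the offset of 50, which pulls its ratios towards 0. Under Agilent's own processed ratio, which differs in background correction and in normalisation, the mean was 0.20 (limma adjusted p = 0.928).

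Aard encodes a protein rich in alanine and arginine that is made in Sertoli cells. Its probe A_52_P522372 lies on chromosome 15 from 52102696 to 52102755 on the plus strand in mm7. Its first 30 bases are shown because this gene had the widest spread of all members, with TTTATT, the reverse complement of the hexamer above, near their end.
Aard A_52_P522372: cagaatctgtgctcatttttactttattta

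The log2 level of Aard was 9.84, 10.46, 10.64 and 10.46 in DEHP mice 1 to 4, and 10.22, 10.70, 10.08 and 10.28 in vehicle mice 1 to 4. The lowest mouse was DEHP mouse 1 and the highest was vehicle mouse 2, and these were hybridised together in pair 1. The other 3 DEHP mice lay above the other 3 vehicle mice. The ratios were -0.86, 0.38, 0.36 and 0.24, with a mean of 0.029 ± 0.59 (SD, n = 4; limma adjusted p = 0.995), or 1.02-fold with a 95% interval from 0.683 to 1.53. The SD lay at percentile 98.8 of all tested probes.

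Pair 1 of Aard was low in both orientations, at -0.74 on the Cy5 array and -0.97 on the Cy3 array. In pairs 2, 3 and 4 all arrays lay above 0, at 0.52, 0.51 and 0.37 on Cy5 arrays and 0.23, 0.21 and 0.11 on Cy3 arrays. Every pair was higher with DEHP in Cy5, with a dye term of 0.13 (limma adjusted p = 0.0176 in the fit with the pair as a block). Without pair 1 the mean was 0.32 (limma unadjusted p = 0.00786, adjusted p = 0.999), and without pair 2, 3 or 4 it was -0.087, -0.081 and -0.041. Leaving out a pair because of its value gives no test of the treatment.

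Markers of elongating spermatids, and those of endothelium and blood, were also lowest in pair 1 in their median. The median ratio of the 8 markers of elongating spermatids was -0.43 in pair 1 and 0.068, 0.11 and 0.30 in pairs 2 to 4, although Odf1 (0.40) and Tnp2 (0.091) lay above 0 in pair 1. The log2 of their summed level was 19.26 in DEHP mouse 1 and 19.68 in vehicle mouse 2, against 19.26 to 19.75 over all DEHP mice and 19.19 to 19.68 over all vehicle mice. The 8 markers of round spermatids had medians of 0.18, 0.36, -0.11 and -0.40, with pair 1 inside the range of the others. Those of the 6 tested markers of endothelium and blood were -0.024, 0.12, 0.065 and 0.15. The part of these marker lists in the ratio of Aard was not tested.

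**Figure D3:**
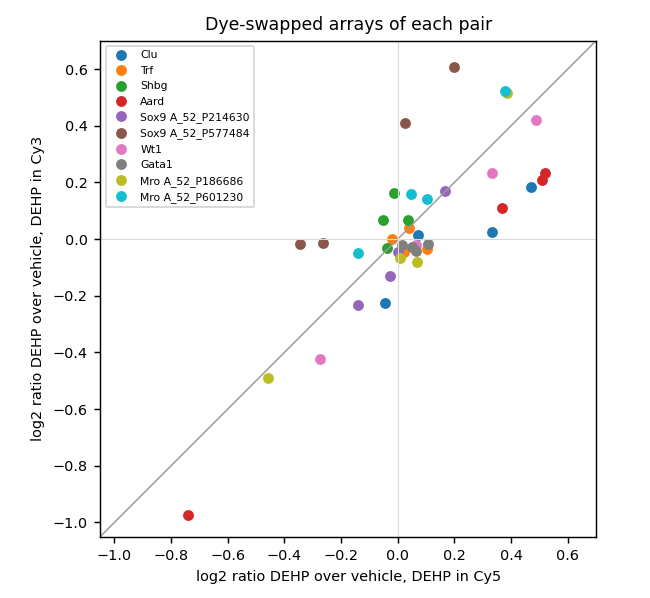
Log2 ratio of DEHP over vehicle on a pair's Cy5 array (horizontal axis) and on its dye-swapped partner with DEHP in Cy3 (vertical axis), with 4 points per tested member probe, 1 per pair, and the line of equal values. Points of Aard, Clu, Wt1 and Gata1 lie below the line, and those of Sox9 A_52_P577484, Shbg and Mro A_52_P601230 above it. The lowest point is Aard in pair 1 at -0.74 and -0.97.

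Across all probes the dye-swapped arrays correlated by 0.73, 0.59, 0.68 and 0.71 in pairs 1 to 4. With each array of a pair kept as a value and the pair as a block, the correlation between the arrays of a pair was 0.88, and 0 of 22975 probes and 0 of 10 member probes were called.

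Mro encodes maestro, a protein with HEAT-like repeats found in the Sertoli lineage of the developing testis. Both of its probes lie on chromosome 18 on the plus strand in mm7, A_52_P186686 at 74272892 to 74272951 and A_52_P601230 at 74275545 to 74275604. For A_52_P186686 the log2 level was 8.39, 8.48, 8.34 and 8.59 in DEHP mice 1 to 4, and 8.14, 8.42, 8.48 and 8.81 in vehicle mice 1 to 4. All 4 DEHP mice lay within the range of the vehicle mice. The ratios were -0.029, -0.0059, -0.47 and 0.45, with a mean of -0.014 ± 0.38 (SD, n = 4; limma adjusted p = 0.995). Without pair 3 the mean was 0.14, and without pair 4 it was -0.17.

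For A_52_P601230 the log2 level was 7.64, 7.61, 7.85 and 7.80 in DEHP mice 1 to 4, and 7.35, 7.53, 7.70 and 7.73 in vehicle mice 1 to 4. The 2 highest mice were DEHP mice 3 and 4 and the 2 lowest were vehicle mice 1 and 2. The ratios were 0.10, -0.094, 0.12 and 0.45, with a mean of 0.15 ± 0.23 (SD, n = 4; limma adjusted p = 0.928), or 1.11-fold with a 95% interval from 0.932 to 1.31. It had the highest mean and the smallest p among the members, at 0.194 unadjusted.

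The 2 Mro probes gave 0.45 each in pair 4 and opposite signs in pair 3, at -0.47 and 0.12. Both arrays of pair 3 agreed within each probe, at -0.46 and -0.49 for A_52_P186686 and at 0.10 and 0.14 for A_52_P601230. The difference between the probes in pair 3 was thus larger than that between dye orientations. In the files A_52_P186686 is assigned to a RefSeq transcript of Mro and A_52_P601230 to a cDNA clone of it.

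The ratios of Wt1, of both tested Sox9 probes and of Mro A_52_P601230 in pair 2 depended on how a few bright backgrounds were handled. On 3 arrays, both of pair 2 and 1 of pair 1, 11 to 12 spots had a local background over 2 times the array's median, and 0 of them were member spots. With these spots kept, the fitted background mean of the normexp model fell to -72 to -625 intensity units, against -9.8 to -0.58 on the same arrays without them. The ratio of Wt1 in pair 2 was 0.11 with them and 0.46 without them, that of the Sox9 probe A_52_P577484 was 0.075 and 0.22, and that of A_52_P214630 was 0.036 and 0.17. That of Mro A_52_P601230 was -0.020 with them and -0.094 without them. Trf, Shbg and Gata1 stayed between -0.035 and 0 in pair 2 either way. Clu, a bright probe, gave 0.33 either way. The authors' deposited table gave 0.70 for Wt1 and 0.47 for Clu in this pair.

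**Figure D4:**
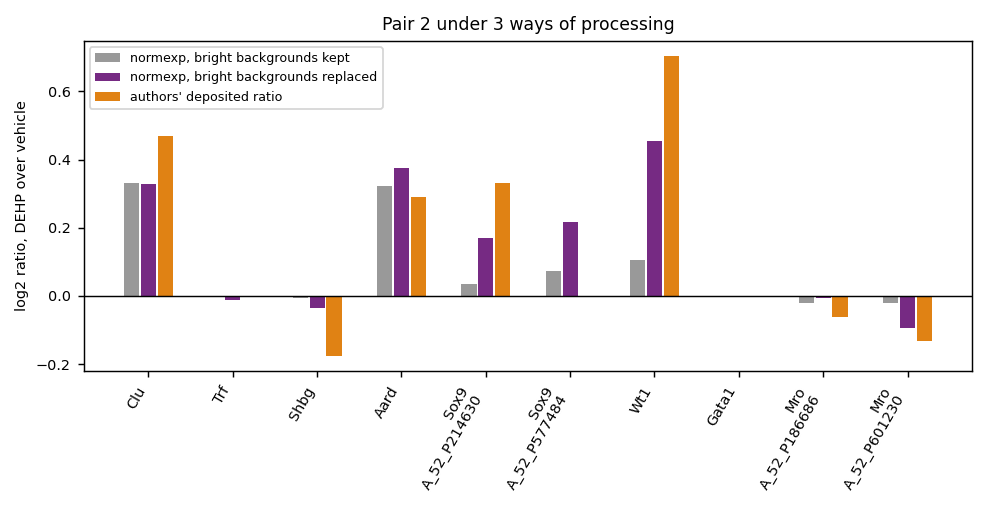
Log2 ratio of DEHP over vehicle in pair 2 (bars from 0) for each tested member probe, with the few bright backgrounds kept in the normexp model (grey), replaced by the array's median (purple), and in the authors' deposited table (orange, absent where the table has no value for a probe). Wt1 rises from 0.11 to 0.46 and 0.70 across the 3, while Clu is at 0.33 in the first and second and at 0.47 in the third.

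The authors' deposited table held values for 7 of the 10 tested member probes and none for Trf, Gata1 or the Sox9 probe A_52_P577484. Its mean ratio over pairs was 0.15 for Clu, 0.18 for Wt1, 0.0035 for Aard, -0.039 for Sox9 A_52_P214630 and 0.18 for Mro A_52_P601230. In Aard the table gave -0.86, 0.29, 0.38 and 0.21 in pairs 1 to 4, with pair 1 apart again. In Wt1 it gave 0.48, 0.70, -0.53 and 0.054, each larger in size than the ratio computed here.

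The neighbours of the members in their pathways were read from lists chosen with earlier results known. Of 18 genes of iron handling around transferrin, 14 were tested, 0 were called, and 9 of 14 lay above 0 with a median of 0.034. The 2 with the smallest p were the iron regulatory proteins, Aco1 at 0.21 ± 0.31 and Ireb2 at -0.20 ± 0.32 (SD, n = 4; limma adjusted p = 0.924 each). One of 2 other probes of Ireb2 had the opposite sign. The transferrin receptor Tfrc was among the 4 genes too dim to test, with Heph, Steap3 and Ltf.

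All 6 receptors of the carriers were tested, 0 were called, and 5 of 6 lay above 0 with a median of 0.078. Lrp8, a receptor that binds clusterin, had -0.080, -0.15, -0.15 and -0.074 in pairs 1 to 4, with a mean of -0.11 ± 0.042 (SD, n = 4; limma adjusted p = 0.922). Its ratio was below 0 in every pair, and 13.3% of all probes had the same sign in all 4 pairs.

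Of 24 partners and relatives of the identity factors, 16 were tested and 0 were called, with 7 of 16 above 0 and a median of -0.013. Wtap, which encodes a protein that binds WT1 and belongs to the RNA methylation complex, had -0.14 ± 0.20, and Gata2 had -0.098 ± 0.15 with the opposite sign in its other probe (SD, n = 4; limma adjusted p = 0.928 and 0.937). Sox8 and Dmrt1, which act beside SOX9 in the Sertoli cell, were among the 8 genes too dim to test.

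Of 20 other proteins secreted by Sertoli cells, 16 were tested and 0 were called. Here 14 of 16 lay above 0, with a median of 0.12, beside 48.8% of all probes and a median of -0.0027. By pair the median was 0.15, 0.26, -0.066 and -0.047. Dhh, the hedgehog ligand of Sertoli cells, had 0.36, 0.24, 0.23 and 0.28, with a mean of 0.28 ± 0.059 (SD, n = 4; limma unadjusted p = 0.00293, adjusted p = 0.922). Defb19, a beta-defensin of Sertoli cells, had 0.26 ± 0.19 (limma unadjusted p = 0.0308, adjusted p = 0.922). They had the 2 smallest p among the 16 genes tested, and 5.19% of all probes had an unadjusted p under 0.05. Dhh had the same sign in all 4 pairs, as had 13.3% of all probes. Both are also in the list of Sertoli markers, as are Inha, Cst12, Ptgds and Ctsl.

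The genes with the pattern most like that of Clu over the 8 arrays were AK012844, Pdik1l and Odf3l1, with Pearson's r of 0.992, 0.991 and 0.988. Odf3l1 gave 0.16, 0.32, -0.18 and 0.064 in pairs 1 to 4, next to 0.18, 0.33, -0.13 and 0.042 for Clu. For Trf they were Sost, Gpr44 and a transcript without a gene name, with r of 0.962, 0.959 and 0.952. For the Sox9 probe A_52_P577484 they were Ppid, TC1417206 and Fkbp2, with r of 0.987, 0.984 and 0.981. These r were the highest among all other probes tested, over 8 arrays that share mice and dyes, so they describe these arrays only. The pattern matched for Trf was that of a dim probe with an SD over pairs of 0.028. Its 2 arrays of a pair gave the same sign in 2 of 4 pairs.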

How the data were processed

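Spot brightness and local background were deposited by the authors as scanned intensity, and log10 ratios of Cy5 over Cy3 as computed by Agilent Feature Extraction 9.5.1.1, per the file headers. A further table by the authors holds deposited log2 ratios, for which the submitters' processing notes name limma. Their direction, DEHP over vehicle, was found from the scanner values (r of 0.943 to 0.972), and how their background was corrected and filtered is not given in the sources used here.

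Here, spots with a background over 2 times the array median were given that median and left out, a step chosen after seeing the data. Intensities were corrected by normexp (offset 50), normalised by loess, averaged per probe, turned to DEHP over vehicle and averaged over a pair's 2 arrays. Probes brighter than background by the scanner's flag in 4 or more of 8 DEHP or of 8 vehicle channels were tested against 0 with limma 3.58.1 in R 4.3.3 (2-sided, Benjamini-Hochberg at 0.05), a fit tested on simulated data. Intervals are 95% from that fit. Levels per mouse come from separate channels after loess and Aquantile normalisation, over 2 arrays; both mice of a pair share their arrays, so levels of different pairs differ also by array.

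Members and gene lists were chosen with earlier results of these data known. Every member probe is reported. Also named are the 2 genes per list with the smallest p, the 3 genes most like Clu, Trf and Sox9 by r, and marker genes where a result turns on them. One gene picked by this rule is left out of the text. A gene of a list is represented by its brightest tested probe. Pairs come from the labels: each array holds 1 DEHP and 1 vehicle mouse. The alternatives covered background correction, normalisation, filter, treatment of pairs and dyes, array weights, variance model, the authors' deposited ratios and each pair left out. Exon and UTR positions in mm7 were not used here.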

Additional observations from a re-analysis of the deposited data

Results flagged for a closer look

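Of 30 groups of values checked for a sample far from the others (the pair ratios and the levels of each mouse group, for the 10 tested probes), 1 stood out. It was pair 1 of Aard, at -0.86, where the gap to the nearest other pair was 0.889 of the whole range of the 4 pairs, above the 95% critical value of Dixon's test. Chance gives such a gap in about 1 in 20 groups.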

How the results depend on the processing

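In each of 17 alternatives, 0 probes and 0 member probes were called. The median ratio of the member probes, 0.027, moved to 0.10 under Agilent's processed log ratio and was 0.013 to 0.085 with 1 pair left out. It was 0.048 on the Cy5 arrays alone and -0.0056 on the Cy3 arrays alone, the alternative in which it lay below 0. With the pair as a replicate block it was 0.027, and the block changed no call. Over all alternatives, 166 mean ratios of single probes were recomputed, of which 18 had the other sign and 5 moved by more than 1 SD over pairs. The 5 were Shbg and Gata1 under Agilent's ratio (0.079 and 0.20), and Gata1 under median centring (-0.0054), with DEHP in Cy5 alone (0.060) and in Cy3 alone (-0.027). With the bright backgrounds kept, an alternative added after seeing the data, the mean of Wt1 was -0.0030 in place of 0.10. Without any background correction it was 0.11, and under Agilent's ratio 0.19. Mro A_52_P601230 stayed above 0 in its 17 alternatives (0.044 to 0.23). Counts at an unadjusted p under 0.05 ran from 543 of 22975 with an intensity trend to 2744 with DEHP in Cy3 alone. The causes were not tested. Low signal over background limits Trf, Shbg, Gata1 and Gata4. To a lesser degree it also limits Wt1 and both tested Sox9 probes, whose dimmest channels lay under the offset of the background correction.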
